A study of Mus musculus with 5 samples.

Results

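Pcx, Acaa2 and Acat1 encode enzymes of the mitochondrial matrix that pass fuel carbon towards acetyl-CoA and the citric acid cycle. The description covers every probe set of the deposited table that the platform annotation assigns to them, and none outside it. They were represented by 9 probe sets, 3 for each gene, of 3373 probe sets and 2190 named genes in the deposited table. For Pcx these were 1 gene-named probe set and 2 control-named ones, which the array carries as quality controls on an endogenous transcript. Expression was measured on 5 Affymetrix arrays with biotin-labelled cRNA from mouse bone marrow mesenchymal stem cells (MSC), adherent stromal cells expanded here in primary culture in Mesencult medium. The comparison asks how soluble products of activated T cells change the MSC transcriptome. The 3 arrays of MSC alone are labelled biological repetitions 1 to 3. The 2 arrays of co-cultured MSC, repetitions 1 and 2, come from MSC kept for 48 h in a transwell with a 10-fold excess of purified T cells that antibodies to CD3 and CD28 had activated. A transwell is a porous membrane insert that separates the cell populations. Strain, age and sex of the mice, whether repetitions came from separate animals, and whether the MSC alone had an empty insert are not given in the sources used here. The SD given below therefore measure the spread between these arrays. The SE also borrow from the spread of all other probe sets of the table.

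Pyruvate carboxylase, the product of Pcx, is a biotin-dependent enzyme that adds carbon dioxide to pyruvate to form oxaloacetate, which refills the citric acid cycle when its intermediates are drawn off for synthesis. The thiolase encoded by Acaa2 performs the last, chain-shortening step of fatty acid beta-oxidation, in which acetyl-CoA is released from a 3-ketoacyl-CoA. The thiolase encoded by Acat1 acts on acetoacetyl-CoA and serves ketone body use and the breakdown of isoleucine. Cultured MSC are known for a strong reliance on glycolysis, and for a larger share of mitochondrial respiration once they differentiate.

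Values are log2 expression from RMA, a method that corrects background, equalises the distributions of the arrays and combines the probes of a probe set, so a difference of 1 is a 2-fold change. The table holds part of an array. In each of its 3373 probe sets the groups did not overlap, the smallest gap between them was 0.34, and 100% passed limma's test of co-cultured against alone at an adjusted p of 0.05, so the table looks selected on this comparison. The 3 genes were also proposed from it with their group differences in view. Their differences are therefore given as a description, with no test. Array medians lay between 7.61 and 7.64 in MSC alone and at 7.50 and 7.42 in co-culture. Of 14 listed MSC markers 6 were in the table: Cd44, Alcam, Pdgfrb and Cxcl12 were lower and Pdgfra and Vcam1 higher in co-culture. Of markers of other cells, 0 of 16 for T cells, 0 of 9 for endothelium, 1 of 14 for adipocytes and 2 of 18 for macrophages were in the table. Probe sets outside it were not analysed here.

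All 9 probe sets of Pcx, Acaa2 and Acat1 were lower after co-culture, in a table where 51.3% of probe sets were called lower and 48.7% higher. The differences ran from -0.77 to -1.54 on the log2 scale, with a median of -1.27 against -1.23 over the 1731 lower probe sets of the table. A decrease of at least 2-fold was found in 7 of the 9 (77.8%), against 1189 of all 3373 probe sets (35.3%). The 1189 all lie among the 1731 lower probe sets. Because the same contrast chose these genes, nothing is read from these shares. In bulk RNA, fewer cells that express a gene and less of its RNA per cell cannot be told apart. Of the 18 listed macrophage markers only Mpeg1 and Ctss were in the table. Mpeg1 gave 4.4, 4.8 and 4.7 in MSC alone and 9.4 and 8.8 in co-culture, a difference of 4.48 ± 0.26 (SE). Ctss gave 3.1, 3.7 and 3.4 against 6.6 and 5.9, a difference of 2.89 ± 0.29 (SE). The part of macrophages in the differences below was not tested.

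**Figure D1:**
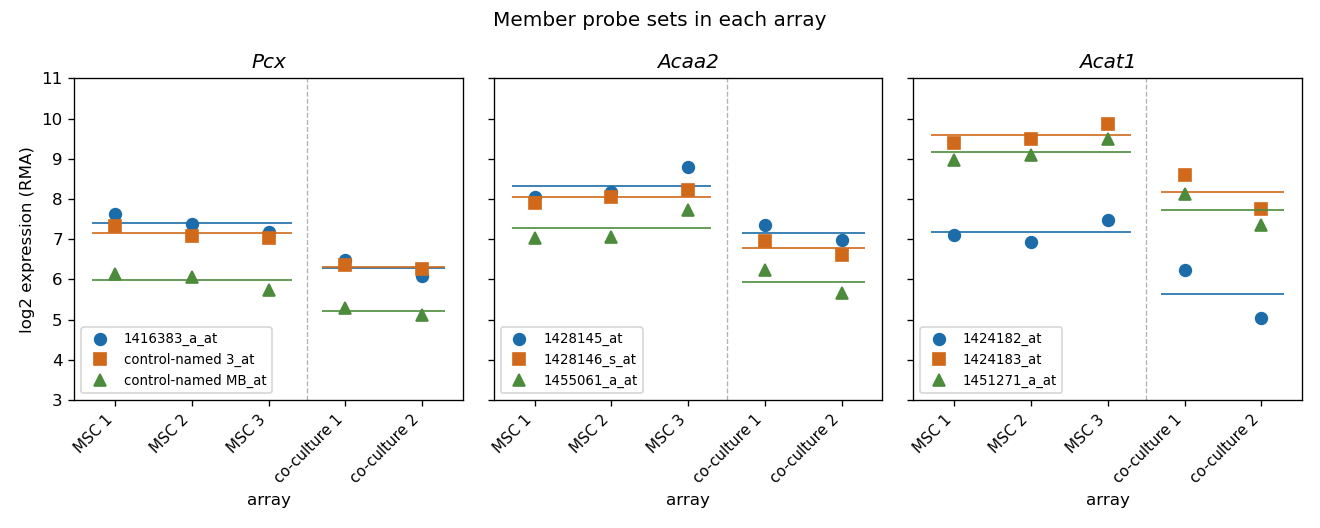
Log2 expression (RMA, vertical axis) of the 9 probe sets of Pcx, Acaa2 and Acat1 in each array (horizontal axis), with horizontal lines at the group means; marker shape and colour separate the probe sets of a gene. Every probe set is lower in both co-culture arrays than in all 3 arrays of MSC alone, and co-culture replicate 2 lies below replicate 1 in all 9.

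Pcx was about 2-fold lower in its gene-named probe set and less than 2-fold lower in both control-named ones. In probe set 1416383_a_at (Entrez gene 18563) the arrays of MSC alone, in the order of replicates 1 to 3, read 7.62, 7.37 and 7.19 on the log2 scale. Co-culture replicate 1 read 6.48 and replicate 2 read 6.08, and the same order of arrays is kept below. The mean went from 7.39 ± 0.21 (SD, n = 3) to 6.28 ± 0.28 (SD, n = 2), a difference of -1.12 ± 0.22 (moderated SE of limma), which leaves 46.1% of the level in MSC alone. The co-culture arrays were both below the lowest MSC array, by at least 0.71. In the control-named probe set for the 3′ end, AFFX-PyruCarbMur/L09192_3_at, the MSC arrays gave 7.33, 7.09 and 7.03 and the co-culture arrays 6.36 and 6.26. This is a difference of -0.84 ± 0.18 (SE), or 1.79-fold. In the control-named probe set marked MB, AFFX-PyruCarbMur/L09192_MB_at, the values were 6.15, 6.06 and 5.74 against 5.29 and 5.12. The difference there was -0.77 ± 0.20 (SE), or 1.71-fold, with the narrowest gap between the groups of the 9 probe sets, 0.45. In all 3 probe sets MSC replicate 1 was the highest and MSC replicate 3 the lowest of the control arrays.

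By their names the control-named Pcx probe sets read different stretches of the RNA, although the files do not map the probes to a transcript. The distance between probe sets within an array shows whether their values changed alike. The 3′ probe set exceeded the MB probe set by 1.18, 1.04 and 1.29 log2 units in the arrays of MSC alone and by 1.07 and 1.13 in the co-culture arrays. These distances overlap between the groups (1.17 ± 0.13, SD, n = 3, against 1.10 ± 0.04, SD, n = 2). The gene-named probe set exceeded the 3′ one by 0.29, 0.28 and 0.16 in MSC alone, but by 0.11 and by -0.18 in co-culture. Here the groups do not overlap: the size of the Pcx decrease depended on the probe set by 0.28 to 0.34 log2 units. Tfrc, the transferrin receptor gene, had the other control-named probe sets of the table, and its 3′ probe set exceeded its M probe set by 2.03 to 2.13 in MSC alone (2.07 ± 0.05, SD, n = 3) and by 2.12 and 2.27 in co-culture (2.19 ± 0.10, SD, n = 2), an overlap that rests on co-culture replicate 1. Both Tfrc probe sets were higher in co-culture, by 0.83 ± 0.20 and 0.70 ± 0.19 (SE), so the control-named probe sets did not share a direction. The part of RNA quality in the differences was not tested.

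RefSeq (GRCm38.p6) lists 2 starts for Pcx, and the annotation used here does not say from which of them the measured RNA came. The 250 bases before each start are shown because the start used is a property of Pcx on which these probe sets are silent. Capitals mark CCAAT and GGGCGG, the CCAAT box and the GC box.
Pcx upstream start, chr19:4510222-4510471, plus strand: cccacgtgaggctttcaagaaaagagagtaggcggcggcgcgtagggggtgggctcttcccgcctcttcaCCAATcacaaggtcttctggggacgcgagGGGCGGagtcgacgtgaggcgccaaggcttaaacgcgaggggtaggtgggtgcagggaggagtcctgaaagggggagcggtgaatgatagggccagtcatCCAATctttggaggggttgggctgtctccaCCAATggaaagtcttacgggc
Pcx downstream start, chr19:4594069-4594318, plus strand: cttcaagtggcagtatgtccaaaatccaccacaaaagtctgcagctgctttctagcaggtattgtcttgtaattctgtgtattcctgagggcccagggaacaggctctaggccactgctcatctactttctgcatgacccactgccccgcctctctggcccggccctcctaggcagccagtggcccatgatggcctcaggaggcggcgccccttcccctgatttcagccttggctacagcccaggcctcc

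Searched on both strands, the upstream window held 3 matches to CCAAT, all on the plus strand and beginning at -180, -51 and -21 from the start, and 1 match to GGGCGG at -151. The downstream window held 0 of either. Of 32851 windows of the same length in the RefSeq table, 33.8% held CCAAT at least once, 2.79% held it 3 times or more, and 32.7% held GGGCGG. The TATA box letters TATAAA, the nuclear receptor core letters AGGTCA and the STAT-type letters TTCNNNGAA had 0 matches in both windows, against 12.4%, 14% and 7.02% of all windows. No searched matches overlapped each other. GC content was 60.8% and 58%, against a median of 52.4%. A match describes letters and not a bound site. For Acaa2 and Acat1 no sequence is shown.

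Acaa2 was 2.25-fold to 2.52-fold lower, with closely similar differences in its 3 probe sets. Probe set 1428145_at (Entrez gene 52538), the brightest, gave 8.05, 8.17 and 8.79 without T cells and 7.35 and 6.98 with them. Its mean went from 8.34 ± 0.40 (SD, n = 3) to 7.16 ± 0.26 (SD, n = 2), a difference of -1.17 ± 0.28 (SE), or 44.4% of the level in MSC alone. Probe set 1428146_s_at gave 7.90, 8.05 and 8.22 against 6.96 and 6.60, a difference of -1.27 ± 0.20 (SE) with the widest gap between the groups of the 9 probe sets, 0.94. The ending _s_at marks a probe set that can bind transcripts of more than 1 gene, so this value is less certain. Probe set 1455061_a_at gave 7.02, 7.06 and 7.73 against 6.22 and 5.65, a difference of -1.33 ± 0.30 (SE). MSC replicate 3 was the highest and replicate 1 the lowest control array in all 3 probe sets, the opposite of the Pcx order. The distance between 1428145_at and 1428146_s_at was 0.15 and 0.12 in MSC replicates 1 and 2 but 0.58 in MSC replicate 3, against 0.38 in both co-culture arrays, so these probe sets did not track each other in the controls. Between 1428145_at and 1455061_a_at the distance was 1.022 to 1.105 in MSC alone and 1.125 and 1.325 in co-culture, so here the groups do not overlap. The distances of the remaining pair overlapped.

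Acat1 stood in co-culture at 34.5% to 37.5% of its level in MSC alone. In probe set 1424183_at (Entrez gene 110446), the brightest, the arrays of MSC alone gave 9.39, 9.50 and 9.87 and those of co-culture 8.59 and 7.75. The mean went from 9.58 ± 0.25 (SD, n = 3) to 8.17 ± 0.59 (SD, n = 2), a difference of -1.41 ± 0.30 (SE), or 2.67-fold. Probe set 1451271_a_at gave 8.96, 9.10 and 9.48 against 8.12 and 7.34, a difference of -1.45 ± 0.29 (SE). These probe sets kept a nearly fixed distance in every array, between 0.39 and 0.47. Probe set 1424182_at gave 7.11, 6.94 and 7.47 against 6.23 and 5.05, a difference of -1.54 ± 0.38 (SE). The co-culture arrays differed more from each other in Acat1 than in Pcx or Acaa2: replicate 2 was below replicate 1 by 0.77 to 1.19, against 0.10 to 0.40 for Pcx and 0.36 to 0.57 for Acaa2. A distance of at least 0.77 occurred in 18.8% of the lower probe sets of the table. With co-culture replicate 1 left out the difference of 1424182_at was -2.13, and with replicate 2 left out it was -0.94, each a change in fold of 1.51 times against the value from all 5 arrays.

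Among the 136 genes with exactly 3 probe sets in the table, the differences of a gene's probe sets spread over a median of 0.46 log2 units. The spread was 0.12 for Acat1, 0.16 for Acaa2 and 0.34 for Pcx, and 12, 19 and 54 genes had a smaller one. The annotation lists the same sequence record for all 3 Acat1 probe sets, and likewise for 1428145_at and 1428146_s_at of Acaa2. A small spread there is therefore not the agreement of independent readings. Of the 1731 lower probe sets, 32.5% to 38.4% lay further below zero than those of Acat1, 43.6% to 54.9% further than those of Acaa2 and 59.2% to 85.6% further than those of Pcx. In the brightest probe sets the intervals of 1 SE around the 3 genes overlap, so the order of the genes by size is not resolved. The 9 probe sets sat among the bulk of the lower probe sets and not at its edge. With each array centred on its median, which shifts co-culture against MSC alone by 0.16, the 9 differences ran from -0.61 to -1.37. The table held 1731 lower probe sets both before and after this centring. The shift is smaller than the smallest gap between the groups, 0.34, so it could not change any direction, and nothing is read from the kept count.

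**Figure D2:**
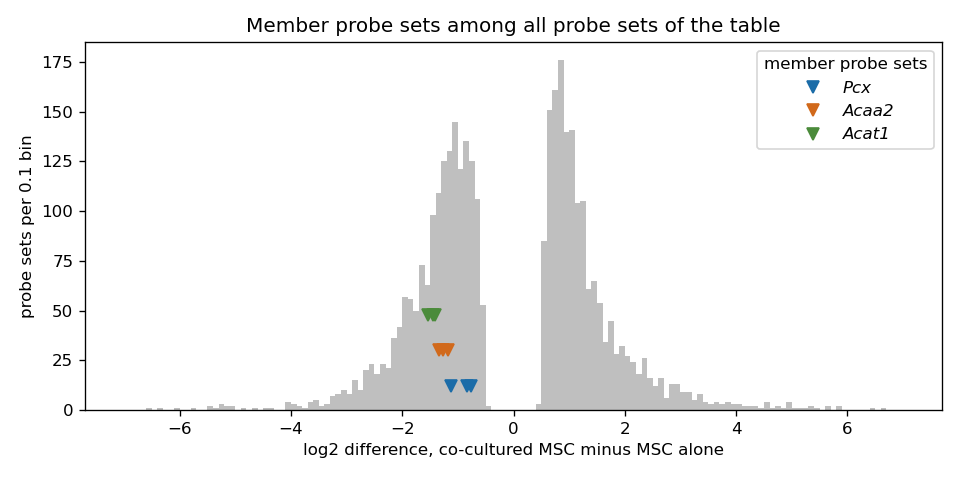
Number of probe sets (vertical axis, bins of 0.1) by log2 difference of co-cultured MSC minus MSC alone (horizontal axis) over all 3373 probe sets in grey, with triangles at the differences of the 9 probe sets; the height of a triangle only separates the genes. The empty centre reflects the gap of at least 0.34 between groups in every probe set, and the triangles lie between -0.77 and -1.54.

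The arrays also differed within the groups. Co-culture replicate 2 was below replicate 1 in 9 of 9 probe sets, a direction found in 77.5% of the lower probe sets of the table. MSC replicate 3 was the highest control array in all 6 thiolase probe sets and the lowest in all 3 of Pcx. In the table's lower probe sets, replicate 3 was highest in 48.3% and lowest in 31.1%. The Pcx arrangement, replicate 1 highest with replicate 3 lowest, was found in 23.5% of them and the Acaa2 arrangement, replicate 3 highest with replicate 1 lowest, in 12.1%. MSC replicate 3 thus stood at opposite ends of the control arrays in Pcx and in the thiolase genes. This contrast rests on a single array, on which the probe sets of a gene are repeat readings.

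The genes with the most alike pattern were found by the root mean square distance over the 5 arrays, after each gene was set relative to its own mean in MSC alone. For Acaa2 the nearest of 2190 genes was Hadh, at a distance of 0.05 log2 units. Hadh encodes the 3-hydroxyacyl-CoA dehydrogenase of mitochondrial beta-oxidation, which acts in the step before the thiolase. It gave 11.35, 11.48 and 12.19 in MSC alone and 10.62 and 10.25 in co-culture, in a probe set ending in _x_at. Next came Tsc22d2 and Erlec1, each at 0.07. In all of these MSC replicate 3 was the highest control array, as in Acaa2. The distance includes that array, so this likeness is part of how they were picked. For Acat1 the nearest were Anp32e, Glt8d1 and Pik3ca, at 0.03, 0.04 and 0.06, and for Pcx they were Ipo9, Trip12 and Mef2a, at 0.05 each. Acaa2 and Acat1 were 0.23 apart, at rank 124 of each other's neighbours. Pcx was 0.38 from Acaa2 and 0.37 from Acat1, close to the median distance of 0.34 between Pcx and all lower genes. With 5 arrays, and a table in which every gene separates the groups, a small distance is common to many genes.

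Most of the listed genes of the same pathways that were in the table were lower in co-culture too. Over 4 pathway lists and 1 enzyme family list, 18 of 115 listed genes were in the table, and 16 were lower and 2 higher, against 51.7% lower among all named genes. The 97 others were not analysed here. The lists were chosen with earlier results of these data known, so nothing is read from the share that was lower. Since every gene in the table separates the groups, a list's count tells on which side those members lay and not how many of the pathway changed. Co-culture replicate 2 was below replicate 1 in 15 of the 18 genes, against 77.5% of the lower and 53.7% of all probe sets. MSC replicate 3 was the highest control array in 10 of the 18, against 48.3% of the lower and 36.4% of all probe sets.

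**Figure D3:**
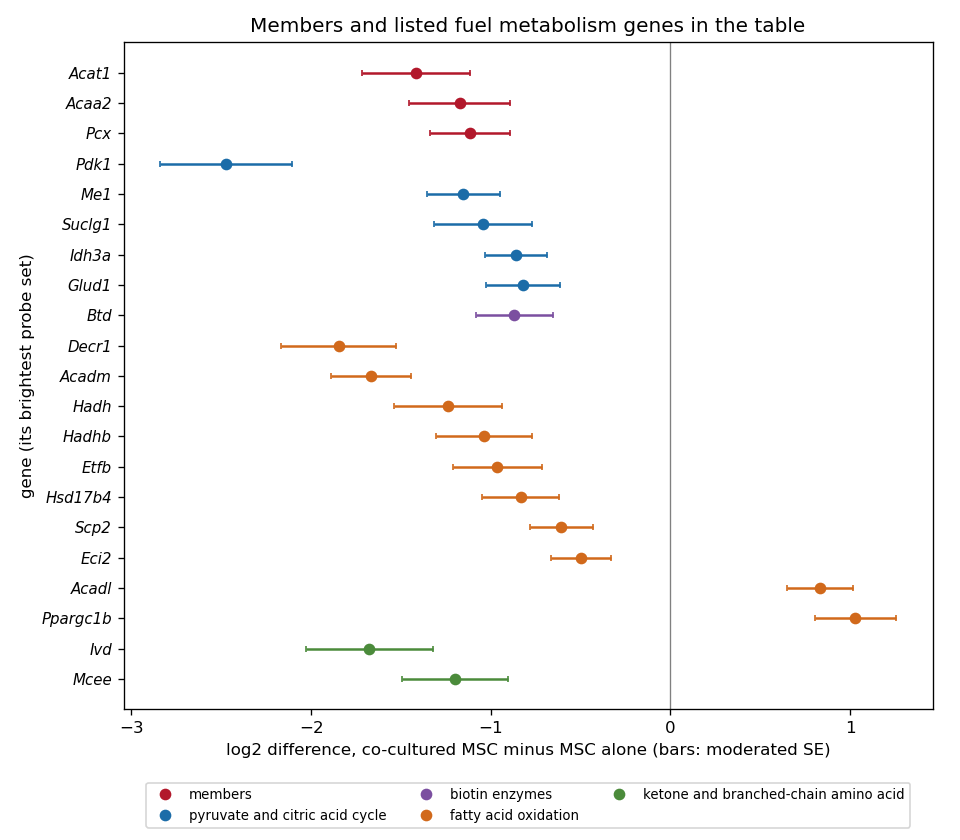
Log2 difference of co-cultured MSC minus MSC alone (horizontal axis; bars are moderated SE) for the brightest probe set of Pcx, Acaa2 and Acat1 and of each listed fuel metabolism gene in the table (vertical axis), coloured by list, with genes of several lists shown once. Only Acadl and Ppargc1b of the genes drawn lie above zero, and Pdk1 lies furthest below.

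Around pyruvate and the citric acid cycle, 5 of 40 listed genes were in the table and all 5 were lower, with a median of -1.04. Pdk1 encodes a kinase that restrains pyruvate dehydrogenase, the route of pyruvate to acetyl-CoA that runs beside pyruvate carboxylase. It gave 10.8, 10.8 and 9.75 against 8.13 and 7.84, a difference of -2.47 ± 0.37 (SE), and -2.50 and -2.48 in its other probe sets. MSC replicate 3 was its lowest control array, as for Pcx. Me1, the cytosolic malic enzyme that forms pyruvate from malate, differed by -1.15 ± 0.20 and Suclg1, a subunit of succinyl-CoA ligase, by -1.04 ± 0.27 (SE). Idh3a, the catalytic subunit of NAD-dependent isocitrate dehydrogenase, differed by -0.86 ± 0.17 in a probe set ending in _s_at and by -1.08 in the other, and Glud1, glutamate dehydrogenase, by -0.82 ± 0.21 (SE). Glud1 and Pcx both encode enzymes that feed carbon into the cycle other than through acetyl-CoA. The list of the other biotin enzymes had 1 of 9 genes in the table, Btd, which encodes the biotin-recycling enzyme biotinidase and differed by -0.87 ± 0.21 (SE).

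In fatty acid oxidation 10 of 42 listed genes were in the table, 8 lower and 2 higher, with a median of -0.90. Acadm, the medium-chain acyl-CoA dehydrogenase, gave 10.4, 10.5 and 10.6 in MSC alone and 9.11 and 8.56 in co-culture, a difference of -1.67 ± 0.22 (SE). Decr1, the dienoyl-CoA reductase needed for unsaturated fatty acids, differed by -1.85 ± 0.32 (SE), and its co-culture values of 4.41 and 3.53 are low for this table, whose lowest value is 2.62. Hadh differed by -1.24 ± 0.30 and Hadhb, the thiolase subunit of the trifunctional protein for long chains, by -1.04 ± 0.27 (SE). Both were read from probe sets ending in _x_at, which can cross-hybridise, and both were highest in MSC replicate 3, as Acaa2 was. Etfb, a subunit of the electron transfer flavoprotein that takes up electrons from the acyl-CoA dehydrogenases, differed by -0.96 ± 0.25 (SE). The genes going the other way were Acadl, the long-chain acyl-CoA dehydrogenase, with 9.59, 9.78 and 9.93 against 10.6 in both co-culture arrays, and Ppargc1b, a transcriptional coactivator of mitochondrial genes, with 6.08, 6.41 and 6.22 against 7.02 and 7.52. Their differences were 0.83 ± 0.18 and 1.03 ± 0.22 (SE). Medium-chain and long-chain acyl-CoA dehydrogenase genes therefore stood on opposite sides in the same arrays.

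Ketone body and branched-chain amino acid breakdown, the setting of Acat1, had 2 of 22 listed genes in the table. Ivd, isovaleryl-CoA dehydrogenase of leucine breakdown, gave 7.77, 7.83 and 8.67 in MSC alone and 6.74 and 6.08 in co-culture, a difference of -1.68 ± 0.35 (SE). Its values were highest in MSC replicate 3, as those of Acat1 were. Mcee, the epimerase on the route from propionyl-CoA to succinyl-CoA, differed by -1.20 ± 0.29 (SE), with 6.91 in co-culture replicate 1 and 5.97 in replicate 2. Of the 6 other thiolase genes listed, Hadhb and Scp2 were in the table. Scp2, which encodes a peroxisomal thiolase joined to a sterol carrier, differed by -0.61 ± 0.18 (SE) in its brighter probe set. The other Scp2 probe set, which ends in _s_at, differed by -1.17 ± 0.19 (SE). Hadhb and Scp2, both also on the fatty acid oxidation list, were thus lower along with Acaa2 and Acat1.

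**Figure D4:**
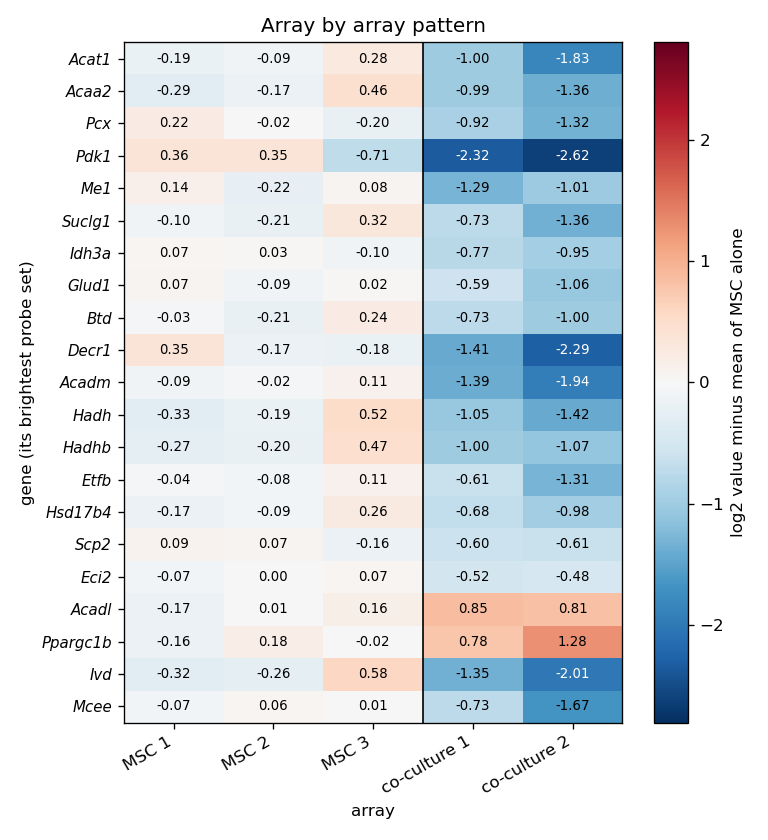
Log2 value minus the gene's own mean in MSC alone (colour and printed number; blue is lower) for Pcx, Acaa2, Acat1 and the listed genes in the table (rows, brightest probe set) in each array (columns). MSC replicate 3 is above the other controls in Acaa2, Acat1 and 10 of the 18 listed genes (Suclg1, Btd, Acadm, Hadh, Hadhb, Etfb, Hsd17b4, Eci2, Acadl and Ivd) and below them in Pcx, Pdk1, Idh3a, Decr1 and Scp2.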

How the data were processed

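Each array's deposited column holds log2 values per probe set. The authors obtained them with RMA (version not stated), per the submitters' processing notes. RMA compresses low values and gives no detection call. All 5 columns were matched to samples. The platform annotation gave 1 symbol for 3013 probe sets, several for 69 and none for 291, and RefSeq (GRCm38.p6) held the gene ID of 3010 and changed 0 symbols. limma 3.58.1 (R 4.3.3; lmFit, eBayes, no covariate, no filter) was fitted to all 5 arrays and 3373 probe sets, with Benjamini-Hochberg adjustment, and gave the SE; it was tested on simulated data. The brightest probe set stood for a gene. The genes and lists were chosen with earlier results of these data known. Named were the 3 genes, up to 6 genes per list, markers in the table, control-named probe sets and the 3 nearest genes of each. Alternatives were array centring, a replicate block, no moderation, a trend, a filter on dim probe sets, other probe set rules and leaving out each array. The number of arrays limits the precision.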

Additional observations from a re-analysis of the deposited data

How the results depend on the processing

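Every alternative kept the 9 probe sets of Pcx, Acaa2 and Acat1 lower in co-culture (8 of 8 without the dimmest 25% of probe sets, which leaves out the MB probe set of Pcx). Because the groups do not overlap in these probe sets, leaving out an array could not change the direction. Moderation, trend and filter leave a difference as it is. Centring shifts it by 0.16, less than the smallest gap between the groups, 0.34, and could not change the direction either. Nothing is therefore read from the kept direction. Leaving out each array in turn gave differences of -0.92 to -1.32 for Pcx, -0.94 to -1.36 for Acaa2 and -0.997 to -1.83 for Acat1 in their brightest probe sets; the Acat1 extremes come without co-culture replicates 2 and 1, and the lone co-culture array is then assumed to vary like MSC alone. The mean of all probe sets gave -0.91, -1.26 and -1.47. For the 5 lists the alternatives run were centring, the mean of all probe sets and the filter on dim probe sets. The counts of lower genes stayed the same, except that the filter took fatty acid oxidation from 8 to 7. Centring could not change these counts and the filter can only remove genes, so nothing is read from their being kept. Of all 3373 probe sets, between 3116 and 3371 passed limma's threshold with 1 array left out. The labels give both groups replicates 1 and 2 without saying that a number marks a shared culture or day, so they share only a number; with the replicate block 3365 passed, and the Pcx, Acaa2 and Acat1 differences were -1.22, -0.94 and -1.27. Without detection calls, low values such as those of Decr1 are least certain.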
